A study of Mus musculus with 8 samples.

Results

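The right ventricle of wild-type (WT) mice was compared between SuHx and control conditions, with all 30495 genes of the deposited count table described across pathways. These are 4 of the 8 libraries of the series, 2 from WT SuHx and 2 from WT control, chosen by the genotype and treatment in their column names. WT SuHx mice were injected with Sugen (20 mg/kg) and lived in hypoxia for 21 days. WT control mice lived in normoxia for the same 21 days. Both groups were 8-week-old females with intact Fpr2, the formyl peptide receptor gene that is deleted in the other 4 libraries. The labels name no strain and do not say that the 2 libraries of a group came from separate mice, so the p-values reflect how far apart those libraries lie, which may be technical. The controls received no Sugen and no hypoxia, so the parts of the combined exposure cannot be told apart here.

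Sugen blocks the receptors of vascular endothelial growth factor (VEGF), and together with hypoxia it narrows and remodels the arteries of the lung. The right ventricle, a thin-walled chamber that normally pumps against low pressure, then works against a raised load. A loaded ventricle is known to thicken, to use less fat and more glucose for fuel, to lay down matrix and to draw in immune cells. Sugen is also known as a ligand of the aryl hydrocarbon receptor (AhR), a transcription factor that senses foreign ring compounds.

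WT SuHx libraries 1 and 3 held 76292772 and 70992742 counts, and WT control libraries 1 and 2 held 67965311 and 70052583. Mitochondrially coded genes took 28.2% and 28.1% of the counts in WT SuHx and 25.8% and 24.2% in WT control. A principal component analysis of the 4 libraries put 60.0% of the variance on the first axis, where the SuHx libraries lay at -67.6 and -66.6 and the controls at 84.0 and 50.2. On the second axis the SuHx libraries lay at 14.7 and 0.0105, and the controls at 51.5 and -66.2. Between the SuHx libraries 1996 genes differed more than 2-fold, and between the controls 2989. Control libraries 1 and 2 therefore stood further apart than the SuHx pair. Some counts below are also given without control library 1 or 2. Other counts changed in those refits too, so a count given alone is not shown to be stable. The counts for beta-oxidation, interferon-stimulated genes and translation initiation, for example, were smaller without control library 1 and without control library 2. Ventricular muscle markers were abundant in all 4 libraries, as the tissue label states, with sums of 48960 and 51080 CPM (counts scaled for library size) in WT SuHx and 34840 and 35440 CPM in WT control. Of 8 markers of lung epithelium 6 had too few counts to test, and the other 2 summed to at most 1.31 CPM in any library.

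Of the 19083 genes with enough counts to test, 3919 (20.5%) were called at an adjusted p under 0.05 by edgeR's quasi-likelihood test. SuHx was higher for 2082 of them (10.9% of tested genes) and lower for 1837 (9.63%). These percentages are the background for every count below. The change was at least 2-fold for 1011 of the higher and 597 of the lower genes, and at least 4-fold for 287 and 198. For each called gene both SuHx libraries lay on one side of both controls, which held for 6198 (above) and 5824 (below) of all tested genes. The median log2 fold change of all tested genes was 0.00434. Protein-coding genes made up most calls (1933 higher and 1674 lower of 14940), and 43 higher and 31 lower calls were among 666 long intergenic noncoding RNAs.

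The calls depend on both SuHx libraries. Without SuHx library 1 the test called 1328 genes and without SuHx library 3 it called 1437. Without control library 1 it called 2606, and without control library 2 it called 4289. Of the 321 called genes named here, 196 were called without SuHx library 1, 206 without SuHx library 3, 250 without control library 1 and 288 without control library 2. Below, "without either SuHx library" means with each of them left out in turn. In these refits the remaining library of a group is assumed to vary like the other groups. A test of whether the SuHx response differed between WT and Fpr2-KO mice called 0 of 19083 genes with edgeR (0%), with 2417 at an unadjusted p under 0.05, whereas DESeq2 called 512, and 756 were called by edgeR without control library 2. No WT response below is therefore described as particular to WT.

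The largest changes among genes of at least 5 CPM covered vessel, matrix, metabolic and muscle genes. Below, paired values are CPM in order of library number, and each log2 fold change (SuHx over control) is given with its standard error. Prnd, which encodes the prion-like protein doppel, had 13.7 and 8.39 CPM in WT SuHx and 0 and 0.0283 CPM in WT control, from 1036 and 581 counts in WT SuHx and 0 and 2 counts in WT control. The ratio of these counts was 756, with an exact 95% interval of 209 to 6250 that covers counting error only. Cyp1a1, a cytochrome P450 that oxidises foreign ring compounds, had 212 and 255 CPM in WT SuHx, against 2.11 and 1.29 CPM in WT control (log2 fold change 7.11 ± 0.38, edgeR adjusted p = 0.000399). Both genes were near absent in controls and present in each SuHx library.

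Itgb6, the beta subunit of an integrin that activates TGF-beta, had 12.99 and 16.5 CPM in WT SuHx and 0.108 and 1.003 CPM in WT control, a change of 4.705 ± 0.77. Rtn4r, a receptor that limits axon growth, was at 4.21 and 6.54 CPM in WT SuHx, against 0.246 and 0.438 CPM in WT control. Smaller levels were thus involved than for Cyp1a1, but the groups lay far apart in each case. The other genes of this set were the topoisomerase gene Top2a (4.99 ± 0.75), the peptide and receptor pair Apln and Aplnr, the kinase anchor Akap5 (3.796 ± 0.48), the scavenging chemokine receptor Ackr4 (3.67 ± 0.52), Mdga1 (3.64 ± 0.32), Nrep (3.53 ± 0.26), the glycosyltransferase B3galt2 (3.29 ± 0.78), the apolipoprotein gene Apol10b (3.23 ± 0.37) and Sez6l2 (3.08 ± 0.28). Itgb6 was not called without SuHx library 3, and B3galt2 without either SuHx library.

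On the lower side, Nr4a1, a nuclear receptor induced within minutes of many stimuli, had 6.001 and 9.68 CPM in WT SuHx and 142 and 212 CPM in WT control (log2 fold change -4.498 ± 0.37, edgeR adjusted p = 0.000923). Pdk4, the kinase that shuts pyruvate dehydrogenase when fat is burned, had 262 and 119 CPM in WT SuHx, against 4672 and 2544 CPM in WT control. The Pdk4 values differed by about as much between the libraries of a group in each condition, yet the groups lay far apart even at their nearest libraries. Serpina3n, a protease inhibitor of the acute phase, fell to 3.64 and 8.84 CPM in WT SuHx, against 57.6 and 79.01 CPM in WT control. Cdo1, which oxidises cysteine, had 0.356 and 0.852 CPM in WT SuHx and 25.6 and 5.67 CPM in WT control, with the controls also far from each other. The remaining genes of this set were Acot1 (-4.38 ± 0.47), the aminopeptidase Lvrn (-3.54 ± 0.66), the nicotinic receptor subunit Chrna2 (-3.49 ± 0.42), the matricellular gene Ccn2 (-3.48 ± 0.60), Pbld1 (-3.48 ± 0.29), the methyltransferase Inmt (-3.38 ± 0.31), the metallothionein Mt2 (-3.29 ± 0.74), the matrix proteoglycan Spock2 (-3.17 ± 0.33), beta-myosin Myh7 (-3.08 ± 0.61) and Hif3a (-3.02 ± 0.61), an inhibitory member of the hypoxia-inducible factor family. Of these genes Ccn2, Mt2 and Myh7 were not called without control library 1, SuHx library 1 or SuHx library 3, Cdo1 without either SuHx library, Lvrn without SuHx library 1 and Serpina3n without SuHx library 1 or either control library.

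**Figure D1:**
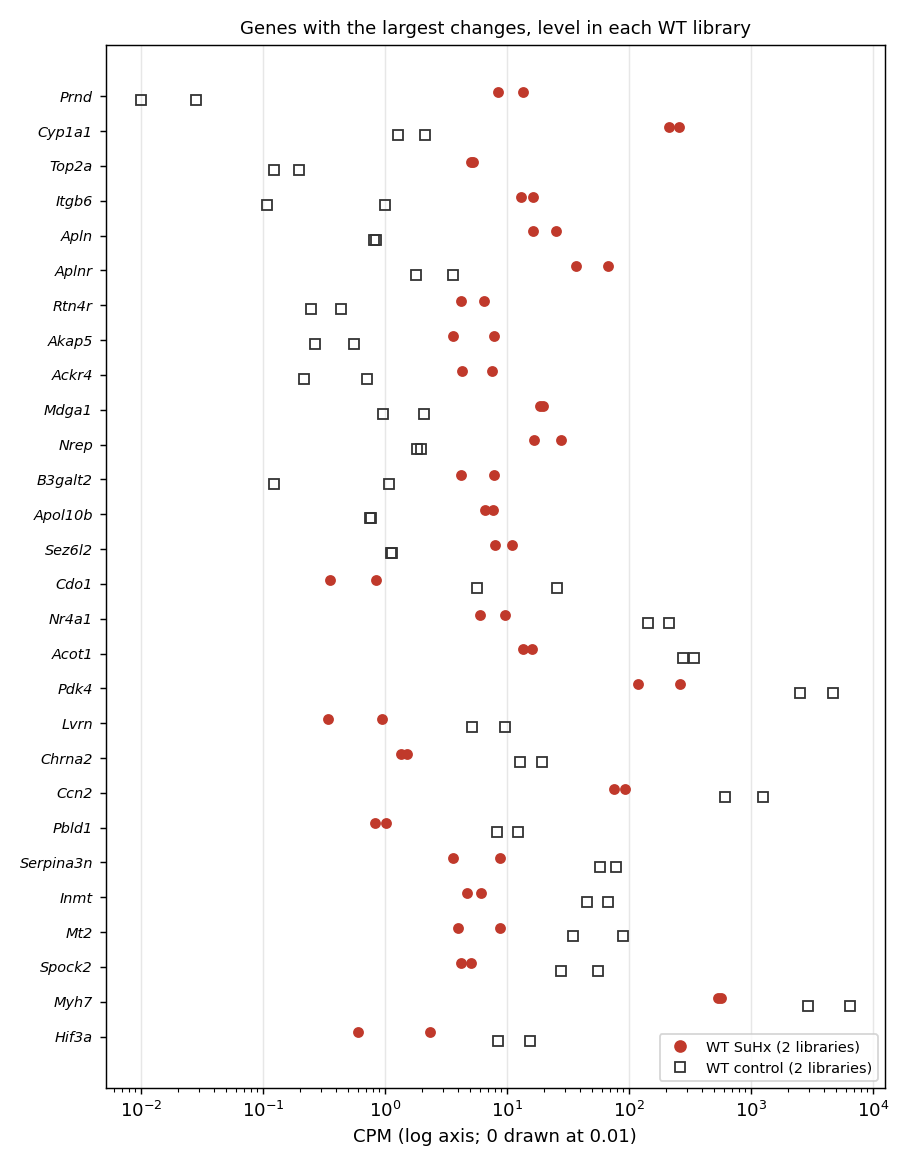
Levels in CPM (log axis, 0 drawn at 0.01) of 14 of the genes with the largest changes in each direction, with filled red circles for the 2 WT SuHx libraries and open squares for the 2 WT control libraries. Genes were drawn only if their groups did not overlap, so the circles lie on one side of both squares by choice. Cyp1a1, for example, stood at 212 and 255 CPM in WT SuHx against 2.11 and 1.29 CPM in WT control.

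Across 37 gene lists, the shares of members called ran from interferon-stimulated genes, at 88.9% higher, to mitochondrial fatty acid oxidation, at 77.8% lower. The lists were compiled with earlier results of these data known, so their counts are descriptions to be read beside the 10.9% higher and 9.63% lower of all tested genes.

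**Figure D2:**
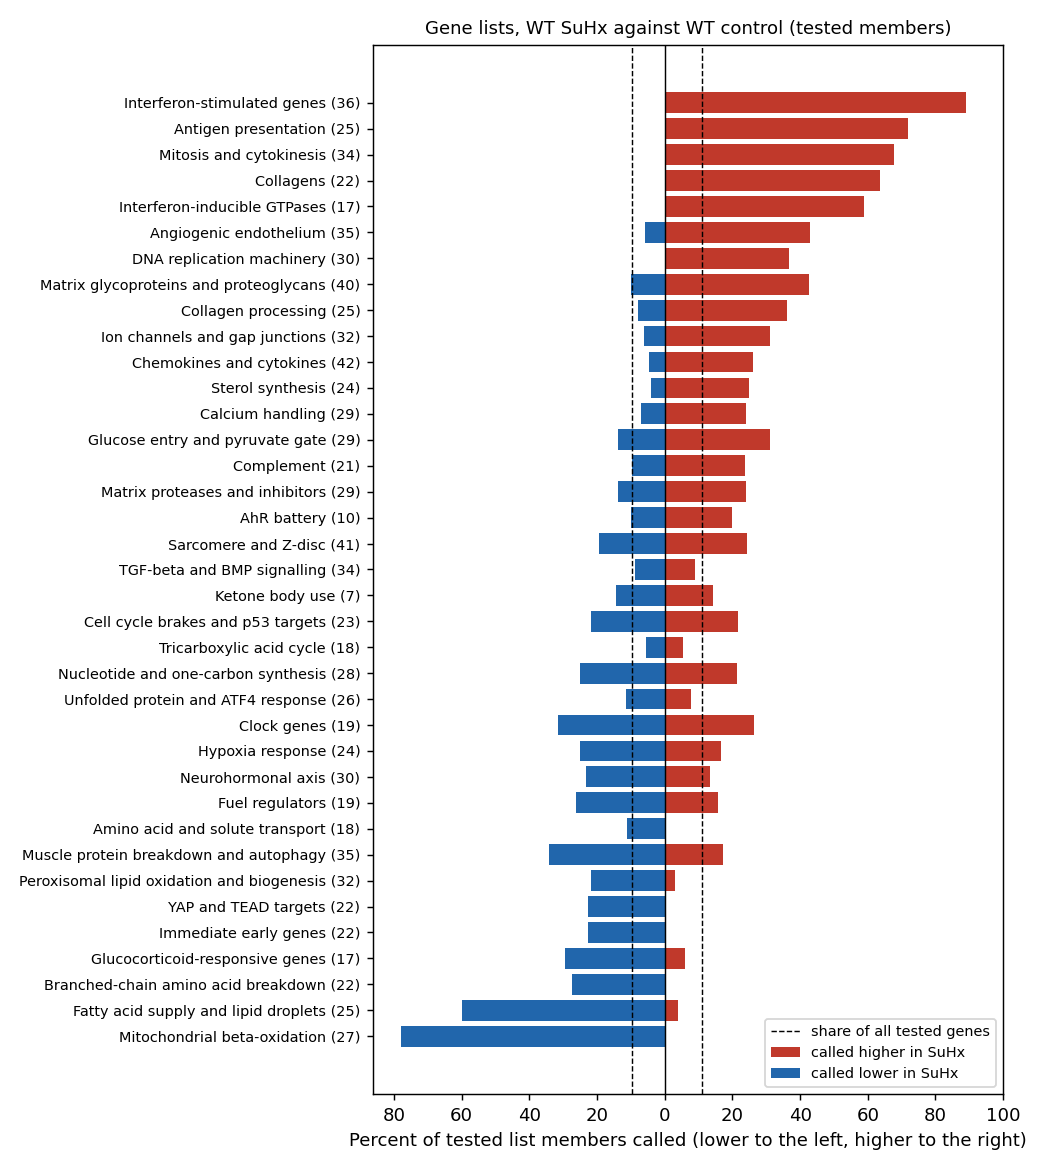
Percent of the tested members of each list called higher (red, to the right) or lower (blue, to the left) in WT SuHx against WT control, with the number of tested members in parentheses and dashed lines at the 10.9% and 9.63% of all tested genes. Interferon-stimulated genes, antigen presentation, mitosis and collagens lie furthest to the right, and fatty acid oxidation and supply furthest to the left.

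The ventricle's fat-burning genes were lower at each step from blood lipid to the mitochondrial matrix. Heart muscle normally takes most of its energy from fatty acids, which lipoprotein lipase frees at the vessel wall, binding proteins carry, lipid droplets store and mitochondria oxidise. Of 25 tested genes of fatty acid supply and lipid droplets, 15 were called lower and 1 higher, with a median log2 fold change of -0.92. Pnpla2, the lipase that opens droplets, had 305 and 295 CPM in WT SuHx, against 1328 and 1153 CPM in WT control (log2 fold change -2.05 ± 0.12, edgeR adjusted p = 0.00031). The droplet coat genes fell together: Plin4 had 96.5 and 162 CPM in WT SuHx and 613 and 501 CPM in WT control (-2.11 ± 0.28), Plin2 changed by -1.62 ± 0.17 and Plin5 by -1.28 ± 0.23. At the vessel wall, Lpl had 3567 and 3738 CPM in WT SuHx, against 7987 and 6289 CPM in WT control (-0.97 ± 0.14), and Gpihbp1, which anchors the lipase on capillaries, changed by -0.60 ± 0.16. Cd36, the main fatty acid transporter at the cell surface, changed by -1.02 ± 0.13, the transport protein gene Slc27a1 by -1.79 ± 0.16 and the binding protein gene Fabp3 by -0.76 ± 0.13. Lipe, the hormone-sensitive lipase, changed by -1.47 ± 0.15. Mgll, which splits monoglycerides, was the 1 member called higher (0.60 ± 0.10). Without SuHx library 3, 9 members were called lower.

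Some droplet genes also mark fat cells, and adipocyte markers were close to 0 in every library. Of 7 adipocyte markers, 3 passed the filter on low counts and 0 were called, and their sums were 0.185 and 0 CPM in WT SuHx and 0.601 and 1.45 CPM in WT control. Adipoq was at 0 in both WT SuHx libraries, against 0.308 and 0.579 CPM in WT control.

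Within mitochondria, 21 of 27 tested genes of beta-oxidation were called lower and 0 higher, with a median of -0.69. The thioesterase Acot2 had 43.7 and 32.7 CPM in WT SuHx and 190.4 and 177 CPM in WT control (-2.26 ± 0.18, edgeR adjusted p = 0.000524). Acacb and Mlycd, which make and remove the malonyl-CoA that restrains fatty acid entry, both fell, with Acacb at 249.8 and 266 CPM in WT SuHx, against 711 and 632 CPM in WT control and Mlycd at 99.5 and 87.1 CPM in WT SuHx and 299 and 211 CPM in WT control. The carnitine step followed, with Cpt1a at -1.46 ± 0.18, the muscle form Cpt1b at -0.69 ± 0.10 and the carrier Slc25a20 at -0.69 ± 0.12. The chain-shortening enzymes changed less, from -0.78 ± 0.10 for Acadl to -0.44 ± 0.12 for Acadvl, and the electron carriers Etfa, Etfb and Etfdh changed by -0.59 ± 0.10, -0.45 ± 0.12 and -0.59 ± 0.12. Cpt2 (-0.17 ± 0.16) and Hadh (-0.29 ± 0.11) were not called. The count was 11 without SuHx library 1 and 13 without SuHx library 3.

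Peroxisomes, which shorten very long fatty acids, showed the change at a few genes. Of 32 tested members 7 were called lower and 1 higher, with a median of -0.12. Catalase, which breaks down the hydrogen peroxide made there, had 195 and 182 CPM in WT SuHx, against 599 and 482 CPM in WT control (-1.52 ± 0.12). Ech1, which reshapes double bonds of unsaturated fatty acids, changed by -0.83 ± 0.13. The biogenesis genes Pex11a (-0.74 ± 0.16) and Pex16 (-0.73 ± 0.14) were also called lower, whereas Pex26, which anchors the import machinery, was higher (0.62 ± 0.16). In refits, 4 members were called lower without SuHx library 1 and 3 without SuHx library 3. Pex26 was not called without either SuHx library, without control library 1, with the 4 WT libraries alone or in a fit with the replicate block (by column number).

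Among regulators of fuel use, Ppargc1a, the coactivator that drives mitochondrial gene expression, had 78.2 and 95.6 CPM in WT SuHx and 149.6 and 278 CPM in WT control (-1.297 ± 0.30, edgeR adjusted p = 0.0239). The deacetylase Sirt1 was at 15.1 and 13.9 CPM in WT SuHx, against 29.2 and 31.9 CPM in WT control, and the nuclear receptor Rxra, the partner of the PPAR factors, at 58.9 and 65.9 CPM in WT SuHx and 96.3 and 88.8 CPM in WT control. Each of these was lower in both SuHx libraries, as was every gene called lower. Nrf1, a factor for nuclear-encoded mitochondrial genes, changed by -0.84 ± 0.13, and Pparg by -0.98 ± 0.24. The mitochondrial deacetylase Sirt3 was called higher (0.59 ± 0.12), as were Ppard (0.51 ± 0.14) and Rxrg (0.49 ± 0.14). Ppara, the main PPAR of heart muscle, was at 17.7 and 24.6 CPM in WT SuHx, against 25.5 and 50.6 CPM in WT control and was not called (-0.85 ± 0.37, edgeR adjusted p = 0.157). In all 3 regulators of 19 were called higher and 5 lower, with 0 higher and 2 lower without SuHx library 1, and 1 higher without SuHx library 3 or without control library 1. Ppargc1a was not called without either SuHx library.

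Genes of ketone use had 1 of 7 called higher and 1 lower, with a median of 0.02. The higher one, Oxct1, which lets muscle burn ketone bodies, had 1063 and 1237 CPM in WT SuHx and 439 and 385 CPM in WT control (1.48 ± 0.15). Of 18 genes of the tricarboxylic acid cycle, 1 was called lower, Idh2 (-0.86 ± 0.11), and 1 higher, Dlst (0.44 ± 0.10), with a median of -0.03. Genes that break down branched-chain amino acids had 6 of 22 called lower and 0 higher, led by Aldh6a1 (-0.75 ± 0.12), Bckdha (-0.64 ± 0.10), Hsd17b10 (-0.61 ± 0.10) and Acadsb (-0.53 ± 0.11), with 2 lower without either SuHx library and 3 without control library 1.

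Genes that bring glucose in and pass pyruvate to mitochondria changed in both directions, with the transporter gene Slc2a4 and hexokinases higher and kinases that inhibit pyruvate entry lower. Of 29 tested members 9 were called higher and 4 lower. The insulin-responsive transporter gene Slc2a4 had 348 and 412 CPM in WT SuHx, against 246 and 234 CPM in WT control (0.67 ± 0.13), and hexokinase 2, Hk2, had 203 and 219.6 CPM in WT SuHx and 63.2 and 99.99 CPM in WT control (1.37 ± 0.21). Pfkfb2, the heart enzyme that makes the activator of phosphofructokinase, had 66.2 and 79.3 CPM in WT SuHx, against 32.8 and 33.999 CPM in WT control (1.12 ± 0.14). Of the complex that turns pyruvate into acetyl-CoA, Pdhb (0.54 ± 0.09) and Dlat (0.37 ± 0.09) were called higher, as was its activating phosphatase Pdp1 (0.54 ± 0.12). Ugp2, on the path to glycogen, was higher (0.49 ± 0.09), and Pygb, a glycogen phosphorylase, was lower (-0.61 ± 0.10). The inhibiting kinases Pdk1 (-0.75 ± 0.09), Pdk2 (-0.48 ± 0.09) and Pdk4 were called lower. Levels of different genes were compared as CPM per kilobase of annotated exon. On that scale Hk2 stood at 34.0 and 36.8 in WT SuHx against 10.6 and 16.8 in WT control and Hk1 at 18.8 and 20.6 in WT SuHx against 14.1 and 12.0 in WT control. Hk2 thus stood above Hk1 in both WT SuHx libraries, and in WT control above it in library 2 and below it in library 1. Without SuHx library 3 the list had 3 higher, and without SuHx library 1 it had 2 lower. Slc2a4 was not called without SuHx library 3.

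**Figure D3:**
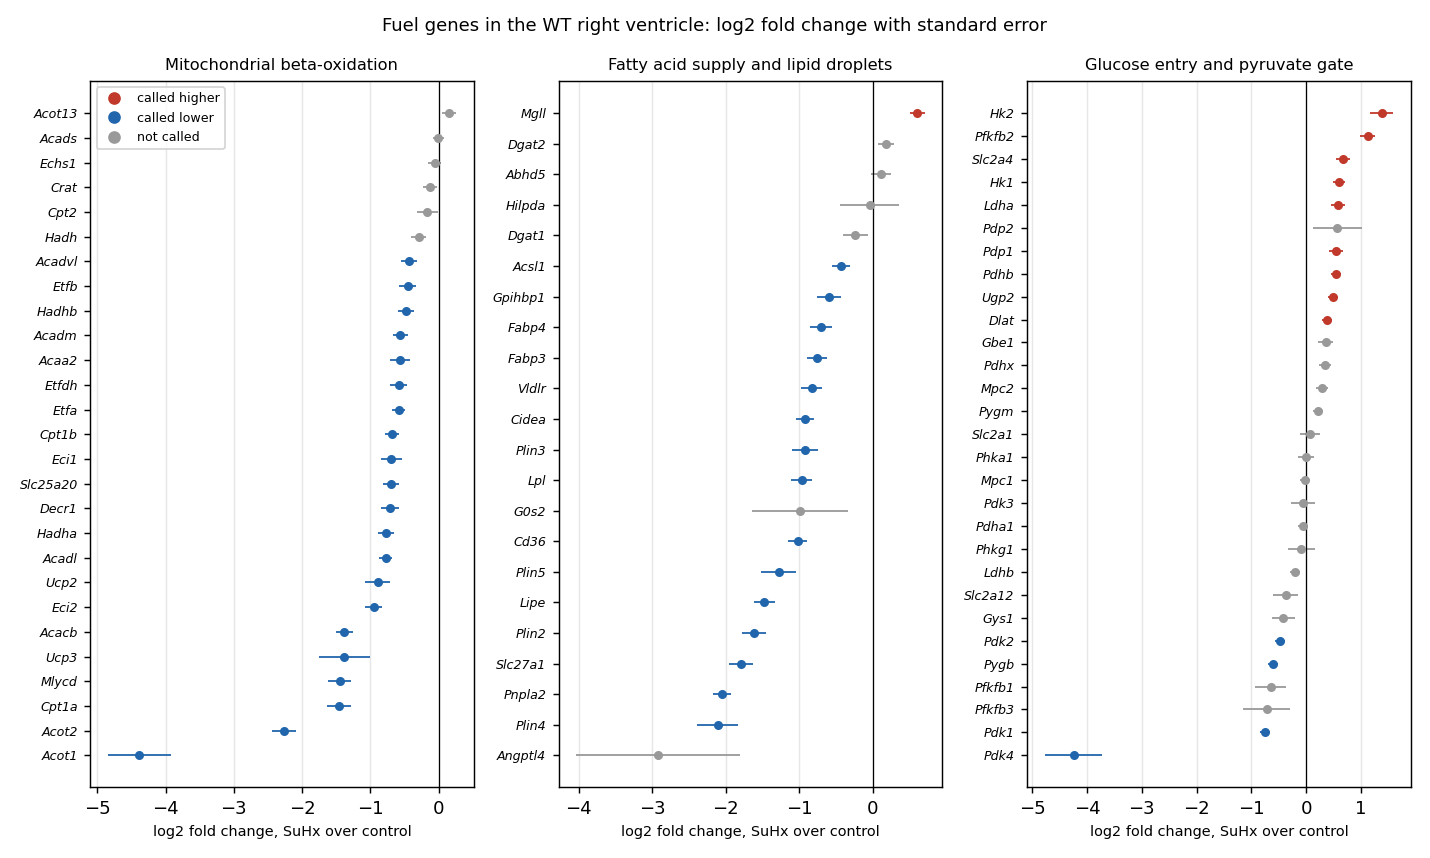
Log2 fold change (WT SuHx over WT control) with standard error for members of at least 0.5 CPM of 3 fuel lists, red where called higher, blue where called lower and grey where not called. Nearly all members of beta-oxidation lie left of 0, the called supply genes reach -2.11 for Plin4, and the glucose genes spread to both sides from Pdk4 at -4.24 to Hk2 at 1.37.

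In the table's own annotations, KEGG terms cover 31.1% of tested genes and GO terms 77.8%. The KEGG terms with the largest shares of lower genes were Fatty acid degradation (17 of 40 lower, 1 higher), PPAR signaling pathway (23 of 65 lower, 7 higher) and beta-Alanine metabolism (9 of 27 lower, 1 higher), with Propanoate metabolism (9 of 29 lower, 2 higher), Circadian rhythm (9 of 30, 2 higher), Valine, leucine and isoleucine degradation (14 of 47, 2 higher) and Drug metabolism by cytochrome P450 (12 of 41, 1 higher) after them. Fatty acid elongation, also among these terms, was called in both directions, with 8 of 26 lower, 6 higher and a median of -0.05. Leading genes outside the lists above were Acss1, a mitochondrial acetyl-CoA synthetase, at 297 and 319.6 CPM in WT SuHx and 759 and 638 CPM in WT control, Dpyd, which breaks down pyrimidines (-1.29 ± 0.18), and the aldehyde dehydrogenase Aldh2 (-0.74 ± 0.11). In the drug metabolism term, Aox1, an aldehyde oxidase, had 33.97 and 38.5 CPM in WT SuHx, against 112 and 92.1 CPM in WT control (-1.49 ± 0.13), and Mgst1, a microsomal glutathione transferase, had 21.6 and 25.5 CPM in WT SuHx and 142 and 88.9 CPM in WT control (-2.29 ± 0.23). These pathways share members such as Aldh2 and are not independent of each other. In the order given, with Fatty acid elongation last, the 8 counts of lower genes were 7, 13, 5, 6, 4, 6, 6 and 3 without SuHx library 1, and 7, 15, 6, 6, 3, 6, 6 and 3 without SuHx library 3. Without control library 1, Fatty acid degradation and Valine, leucine and isoleucine degradation had 9 each, and without control library 2 Fatty acid elongation had 5.

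KEGG terms with the largest shares of higher genes were carbohydrate, replication, antigen, apoptosis, collagen and sterol terms. Fructose and mannose metabolism had 11 of 31 higher and 5 lower, Galactose metabolism 9 of 28 and 2, and Glycolysis / Gluconeogenesis 16 of 55 and 5. Without SuHx library 3 their higher counts were 4, 5 and 8, without SuHx library 1 they were 7, 7 and 11, and without control library 1 they were 6, 7 and 10. Their leading genes include the phosphofructokinase gene Pfkl at 112 and 123 CPM in WT SuHx, against 59.8 and 59.1 CPM in WT control (0.98 ± 0.11), the aldose reductase Akr1b3 (0.60 ± 0.09) and Galm (1.36 ± 0.16), which interconverts forms of galactose. The term Apoptosis - multiple species had 9 of 30 higher and 2 lower, led by Bak1 (1.097 ± 0.14), which opens the outer mitochondrial membrane, the initiator caspase gene Casp8 (0.96 ± 0.18) and cytochrome c, Cycs (0.62 ± 0.12). That count was 2 without SuHx library 1, 3 without SuHx library 3 and 4 without control library 1. Steroid biosynthesis had 5 of 17 higher and 1 lower, and in the wider list of sterol synthesis 6 of 24 were called higher and 1 lower. Cyp51 (1.16 ± 0.24), Msmo1 (0.87 ± 0.25) and Dhcr7 (1.31 ± 0.23), late enzymes of cholesterol synthesis, were higher, whereas Fdft1, which commits precursors to sterols, had 36.6 and 40.8 CPM in WT SuHx and 106 and 98.2 CPM in WT control (-1.403 ± 0.11). The sterol list had 1 higher without either SuHx library and 3 without control library 1, and the KEGG term then had 0, 1 and 2.

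Genes of translation initiation were called lower more often than higher. Initiation factors bring the small ribosomal subunit to the messenger's cap and find the start codon. Of the GO term for cytoplasmic translational initiation, 11 of 17 tested genes were called lower and 0 higher, and 0 of the 17 had a positive log2 fold change. The wider term of translation initiation factor activity had 21 of 46 lower and 2 higher. Eif1, which guards start codon choice, had 381 and 364 CPM in WT SuHx, against 713 and 664 CPM in WT control (-0.89 ± 0.11, edgeR adjusted p = 0.00161). The helicase gene Eif4a2 had 383 and 365 CPM in WT SuHx and 737 and 710.3 CPM in WT control (-0.95 ± 0.12), and its cofactor Eif4b had 187.4 and 178 CPM in WT SuHx, against 344 and 293 CPM in WT control (-0.80 ± 0.10). In the eIF3 complex, the scaffold of initiation, Eif3g changed by -0.88 ± 0.12, Eif3c by -0.62 ± 0.10 and Eif3a by -0.60 ± 0.10. A pair of genes, named after their values were seen, bear on the cap-binding step. Eif4e, which holds the cap, was called higher at 128 and 130.3 CPM in WT SuHx and 76.8 and 84.7 CPM in WT control (0.68 ± 0.10), and Eif4ebp1, its inhibitor, was called lower at 45.2 and 37.01 CPM in WT SuHx, against 134 and 117 CPM in WT control (-1.61 ± 0.17). The narrower term had 5 lower without SuHx library 1 and 6 without SuHx library 3, and the wider term had 8 and 10. The terms for the 43S and 48S preinitiation complexes (9 of 17 and 8 of 15 lower) and for formation of the initiation complex (8 of 16) share their leading genes Eif3g and Eif3c with it, and had 3 to 6 lower with a SuHx library left out.

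The next GO terms by share of lower genes were response to cold (8 of 17, 1 higher), NAD+ ADP-ribosyltransferase activity (7 of 15, 2 higher) and long-chain fatty acid metabolic process (8 of 18, 2 higher). The cold-inducible RNA-binding genes Cirbp and Rbm3 led the first of these, with Cirbp at 40.8 and 33.6 CPM in WT SuHx and 110.1 and 91.9 CPM in WT control (-1.44 ± 0.14) and Rbm3 at 53.4 and 53.6 CPM in WT SuHx, against 93.1 and 126 CPM in WT control (-1.03 ± 0.17). In both the SuHx libraries were close together and, as for every gene called lower, below both controls. Art3 (-0.88 ± 0.14), Art5 (-0.70 ± 0.14) and Parp8 (-0.60 ± 0.12), which transfer ADP-ribose to proteins, led the second, with 2 lower without SuHx library 1, 1 without SuHx library 3 and 3 without control library 1. The terms for cold and for long-chain fatty acids had 4 to 6 lower without a SuHx library or control library 1.

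Interferon-stimulated genes were higher across the list. Interferons signal through factors of the STAT and IRF families, which bind an interferon-stimulated response element in the promoters of antiviral genes. Of 36 tested members 32 were called higher and 0 lower, with a median log2 fold change of 1.39. Transcription factors of the pathway were among them, with Irf7 at 29.3 and 18.2 CPM in WT SuHx and 7.24 and 10.97 CPM in WT control (1.38 ± 0.26), and Stat2 and Irf9 changing by 0.93 ± 0.23 and 1.09 ± 0.26. Among effectors, Xaf1, a partner of apoptosis inhibitors, had 18.1 and 14.4 CPM in WT SuHx, against 5.097 and 4.95 CPM in WT control (1.69 ± 0.17, edgeR adjusted p = 0.000825). Oasl2, a sensor-family gene, had 28.1 and 20.5 CPM in WT SuHx and 4.42 and 6.01 CPM in WT control (2.22 ± 0.25), Ifi44 changed by 2.47 ± 0.28 and Cmpk2, a mitochondrial nucleotide kinase, by 1.62 ± 0.19. The RNA sensors Ddx58 (1.22 ± 0.15) and Ifih1 (1.13 ± 0.28) were also called. Levels were modest: no called effector named here exceeded 30 CPM in any library. The 4 members not called, Ifit2 (0.08 ± 0.16), Isg20 (0.44 ± 0.33), Eif2ak2 (0.63 ± 0.21) and Mx1 (1.39 ± 0.70), had positive values. The count was 15 without SuHx library 1. Irf7, Stat2, Irf9 and Ifih1 were not called without SuHx library 1. Stat2, Irf9 and Ifih1 were not called without control library 1, nor Irf9 and Ifih1 without SuHx library 3. With the 4 WT libraries alone or with the replicate block, Stat2 and Irf9 were not called.

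The interferon-inducible GTPases, which attack the membranes around intracellular microbes, had 10 of 17 tested genes higher and 0 lower, with a median of 1.61. Gbp2 had 34.9 and 35.3 CPM in WT SuHx, against 5.37 and 6.75 CPM in WT control (2.53 ± 0.18, edgeR adjusted p = 0.000401), Gbp5 had 20.5 and 16.6 CPM in WT SuHx and 3.03 and 3.46 CPM in WT control (2.51 ± 0.21), and Gbp3 and Gbp7 changed by 1.98 ± 0.23 and 1.61 ± 0.24. Counts of the near-identical pairs Tgtp1 and Tgtp2, and of Ifit3 and Ifit3b, may share reads and are uncertain one by one. A pair of GO terms overlap these lists, with 16 of 35 genes higher and 1 lower for the cellular response to interferon-beta and 12 of 26 and 1 for negative regulation of viral genome replication. The first had 9 higher without either SuHx library, and the second had 4 without SuHx library 1, 6 without SuHx library 3 and 8 without control library 1.

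The promoters of these genes are shown because they hold the interferon response element. The letters GAAANNGAAA were searched on both strands of the 250 bases before each start in RefSeq's mouse promoters (GRCm38.p6, the assembly also called mm10). They occurred in 3.37% of the 12683 tested genes with a promoter in the table, in 10 of the 24 matched interferon-stimulated genes and in 10 of the 10 matched GTPases. Here and in the motif counts below, a gene with several promoters was counted if any of them held the letters. Gbp3 has another promoter that held no match and is not shown. Of the called genes named above, Ifi44, Oasl2, Xaf1, Cmpk2, Ddx58, Ifih1, Irf7 and Irf9 also held no match and are not shown. Capitals mark the match, which in these stretches lies on the opposite strand, and in Gbp3 they cover 2 overlapping matches. Each line gives the gene, the position on its chromosome and strand, and the sequence, 5′ to 3′ on the gene's strand.
Gbp2 (chr3:142620584-142620633, plus strand): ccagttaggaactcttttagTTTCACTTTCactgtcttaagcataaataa
Gbp3 (chr3:142559979-142560034, plus strand): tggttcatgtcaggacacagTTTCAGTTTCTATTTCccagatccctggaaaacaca
Gbp7 (chr3:142530263-142530312, plus strand): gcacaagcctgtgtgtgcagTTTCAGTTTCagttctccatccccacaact
Ifit3 (chr19:34583353-34583436, plus strand): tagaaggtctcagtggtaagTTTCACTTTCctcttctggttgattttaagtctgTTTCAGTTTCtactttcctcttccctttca
Rsad2 (chr12:26456543-26456592, minus strand): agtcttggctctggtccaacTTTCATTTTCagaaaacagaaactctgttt
Of the 20 genes of both lists with a match, the 10 interferon-stimulated genes and 8 of the GTPases were called higher, and 11 of the 14 matched interferon-stimulated genes without one were called higher. Rsad2, the antiviral radical enzyme viperin, changed by 1.23 ± 0.28 and Ifit3, which binds viral RNA, by 1.69 ± 0.23. A match of letters is a description of the sequence and shows no binding.

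Antigen presentation, which interferons also raise, had 18 of 25 tested genes higher and 0 lower, with a median of 1.22. The class I light chain B2m had 305 and 309 CPM in WT SuHx, against 119 and 149.8 CPM in WT control (1.19 ± 0.16). The immunoproteasome subunits Psmb8 (1.53 ± 0.23), Psmb9 (1.61 ± 0.21) and Psmb10 (0.92 ± 0.12) and the peptide pump subunit Tap1 (1.22 ± 0.28) were called higher. Of the class II genes, the loading factor H2-DMa had 5.58 and 4.55 CPM in WT SuHx and 0.939 and 1.79 CPM in WT control (1.89 ± 0.33), and the class II activator Ciita had 3.27 and 2.34 CPM in WT SuHx, against 0.308 and 0.735 CPM in WT control (2.42 ± 0.47). Cd74 (2.04 ± 0.67) and H2-Ab1 (2.38 ± 0.70) were not called. H2-Q6 and H2-Q7 are near-identical and uncertain one by one. The count was 6 without SuHx library 1, 8 without SuHx library 3 and 9 without control library 1, and the KEGG term Antigen processing and presentation had 20 of 63 higher and 3 lower, with 5, 6 and 8 higher in the same refits. Ciita was not called without SuHx library 1.

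Immune cell markers moved with these genes, and in bulk tissue more cells of a type and more RNA per cell cannot be told apart. Of 12 macrophage and monocyte markers 7 were called higher and 0 lower, and their sums were 379 and 471 CPM in WT SuHx and 219.5 and 294 CPM in WT control. Cx3cr1, the fractalkine receptor, had 5.86 and 3.26 CPM in WT SuHx and 0.277 and 0.198 CPM in WT control (4.26 ± 0.49), and Adgre1, which encodes F4/80, had 17.7 and 20.1 CPM in WT SuHx, against 3.96 and 6.56 CPM in WT control (1.85 ± 0.24), whereas Cd163, a marker of resident macrophages, was at 16.02 and 26.9 CPM in WT SuHx and 33.2 and 37.1 CPM in WT control and was not called. B cell markers had 4 of 8 called higher, with sums of 21.3 and 10.5 CPM in WT SuHx and 4.53 and 5.88 CPM in WT control. T and NK cell markers had 1 of 9 called, with sums of 2.91 and 2.12 CPM in WT SuHx and 0.847 and 1.26 CPM in WT control, and 0 of 7 neutrophil markers were called. The part of these cells in the interferon and antigen results was not tested.

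Chemokine genes had 11 of 42 called higher and 2 lower. Cxcl9, an interferon-gamma-induced attractant of T cells, had 13.8 and 11.3 CPM in WT SuHx, against 1.56 and 1.82 CPM in WT control (2.89 ± 0.28). Cxcl16 had 14.7 and 12.2 CPM in WT SuHx and 3.496 and 5.96 CPM in WT control (1.51 ± 0.25), and the scavenger receptor gene Ackr3 changed by 0.89 ± 0.10. The monocyte receptor gene Ccr2 changed by 2.03 ± 0.31 and the macrophage growth factor gene Csf1 by 0.90 ± 0.14. Il6ra (-0.95 ± 0.24) and Osmr (-0.73 ± 0.18), receptors of the interleukin-6 family, were the 2 lower genes. The list had 7 higher without SuHx library 1 and 7 without control library 1. Neither receptor gene was called without SuHx library 1 or control library 2, and Il6ra was not called without SuHx library 3 or control library 1 either. A Reactome term in the table, looked up after values were seen, named the same family: of 18 genes of Interleukin 6 family signaling 8 were called lower and 0 higher. There, the cytokine gene Clcf1 had 2.72 and 2.99 CPM in WT SuHx, against 10.7 and 8.804 CPM in WT control (-1.77 ± 0.20), Stat3 had 95.3 and 114 CPM in WT SuHx and 174 and 174 CPM in WT control (-0.73 ± 0.11), Il11ra1 changed by -0.58 ± 0.09 and the feedback inhibitor Socs3 by -1.402 ± 0.23, with 4 lower without SuHx library 1 and 5 without control library 1.

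Complement genes had 5 of 21 higher and 2 lower. The regulator Cd55 had 14.5 and 13.5 CPM in WT SuHx, against 4.204 and 5.43 CPM in WT control (1.54 ± 0.21), and the chains C1qa, C1qb and C1qc changed by 0.87 ± 0.22, 0.82 ± 0.22 and 0.87 ± 0.24. Masp1, a protease of the lectin pathway, was among the lower genes (-1.59 ± 0.36). Without a SuHx library or without control library 1 the number of higher genes was 1 or 2, and without SuHx library 3 or control library 1 there was 1 lower.

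Cell division genes were low in control ventricles, and most were higher under SuHx. Adult heart muscle cells rarely divide, while endothelial cells, fibroblasts and immune cells can. Of 34 tested genes of mitosis and cytokinesis 23 were called higher and 0 lower, with a median log2 fold change of 2.88, the same with genes at 0 set to their lower bound. Cenpf, a centromere protein, had 27.5 and 26.8 CPM in WT SuHx and 4.14 and 3.49 CPM in WT control (2.83 ± 0.30, edgeR adjusted p = 0.00116). Top2a, which untangles DNA before division, had 5.29 and 5.08 CPM in WT SuHx, against 0.123 and 0.198 CPM in WT control, and Tpx2, a spindle factor, had 3.18 and 3.06 CPM in WT SuHx and 0.277 and 0.212 CPM in WT control (3.67 ± 0.48). The proliferation marker Mki67 had 7.78 and 6.85 CPM in WT SuHx, against 1.001 and 0.933 CPM in WT control (2.92 ± 0.57). Cdca8, a subunit of the chromosomal passenger complex, had 72 and 72 counts in WT SuHx and 0 and 0 in WT control, which puts it at least 44.9-fold higher with a floor of 3 counts over the control group. Bub1, a checkpoint kinase, had 73 and 105 counts in WT SuHx against 0 and 0 in WT control, at least 55.5-fold higher, and cyclin B, Ccnb1, had 55 and 58 in WT SuHx against 0 and 0 in WT control, at least 35.2-fold higher. Apart from Cenpf these genes stayed below 8 CPM in every SuHx library, a low level in absolute terms. Without SuHx library 1 the list had 9 called, without SuHx library 3 it had 8 and without control library 1 it had 15. Mki67 was not called without SuHx library 1 or either control library, Bub1 without SuHx library 3 and Ccnb1 without any 1 of the 4 WT libraries.

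Promoters of mitotic genes are known for CCAAT boxes, bound by NF-Y, and for the cell cycle homology region TTTGAA, bound by the DREAM complex. In the same 250 upstream bases, on both strands, CCAAT was present in 22 of the 29 matched mitosis genes, against 39.8% of tested genes, and TTTGAA in 9 of the 29, against 13.7%. Both were present in 8 of the 29, against 5.23% of tested genes. The stretches below show only matches in the part of each window nearest the gene start. In that part both motifs, in capitals and on either strand, lie in Cdk1 and Top2a, and CCAAT alone in Ccnb1 and Cenpf. Matches further upstream in the 250 bases are not shown.
Cdk1 (chr10:69352913-69353012, minus strand): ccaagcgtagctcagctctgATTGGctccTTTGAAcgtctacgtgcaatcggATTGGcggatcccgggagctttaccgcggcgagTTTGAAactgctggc
Top2a (chr11:99024190-99024307, minus strand): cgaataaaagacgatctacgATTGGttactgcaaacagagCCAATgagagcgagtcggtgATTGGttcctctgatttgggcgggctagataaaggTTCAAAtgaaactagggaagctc
Ccnb1 (chr13:100786529-100786605, minus strand): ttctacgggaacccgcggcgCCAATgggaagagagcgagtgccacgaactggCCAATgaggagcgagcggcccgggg
Cenpf (chr1:189688133-189688177, minus strand): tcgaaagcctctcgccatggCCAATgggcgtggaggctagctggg
Cdk1, the kinase that starts mitosis, changed by 3.46 ± 0.67. The matches describe these windows and show no binding.

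DNA replication genes had 11 of 30 called higher and 0 lower, with a median of 0.39. Mcm5, a subunit of the replicative helicase, had 6.198 and 6.93 CPM in WT SuHx and 0.878 and 0.933 CPM in WT control (2.86 ± 0.29), Mcm6 had 12.1 and 12.2 CPM in WT SuHx, against 4.73 and 5.74 CPM in WT control (1.22 ± 0.16), and Mcm3 (1.19 ± 0.21), the ligase gene Lig1 (1.44 ± 0.27) and the methyltransferase Dnmt1 (0.95 ± 0.18) were higher too. The count was 4 without either SuHx library and 7 without control library 1, and KEGG's DNA replication term had 12 of 35 higher and 2 lower, among them Rpa3 (1.93 ± 0.30), a subunit of the single-strand binding protein, and had 6 higher without SuHx library 1 and 4 without SuHx library 3. Nucleotide synthesis was split, with 6 of 28 higher and 7 lower. The thymidine nucleotide genes Tk1 (1.34 ± 0.27), Tyms (1.401 ± 0.32) and Dut (0.58 ± 0.14) were higher, as was the pyrimidine gene Dhodh (0.80 ± 0.13). The purine genes Pfas (-1.07 ± 0.16), Gart (-0.58 ± 0.11) and Paics (-0.38 ± 0.10) were lower, with Prps1 (-0.79 ± 0.13), which makes the shared precursor, and the folate-cycle gene Shmt1 (-0.97 ± 0.21). With a SuHx library left out, at most 1 nucleotide gene was called higher and 2 or 3 lower.

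Among brakes of the cell cycle, Cdkn1a, the p21 inhibitor, had 12.9 and 22.2 CPM in WT SuHx and 187.3 and 65.1 CPM in WT control (-2.85 ± 0.60) and the antiproliferative gene Btg2 had 25.7 and 35.95 CPM in WT SuHx, against 234 and 112 CPM in WT control (-2.49 ± 0.39). Both varied about 2-fold or more between the controls. Tob1 (-1.18 ± 0.17) and Cdkn1b (-0.64 ± 0.15), the p27 inhibitor, were also called lower. Ccng1, a p53 target, had 798 and 926 CPM in WT SuHx and 339.7 and 346 CPM in WT control (1.33 ± 0.11), and the p53 targets Zmat3 (0.53 ± 0.15), Eda2r (1.34 ± 0.30) and Bax (0.59 ± 0.18) were higher. The list had 5 of 23 in each direction, with 1 higher without either SuHx library and 2 without control library 1, and 1 to 8 lower with a WT library left out. Cdkn1a was not called without either SuHx library, and Btg2 was not called without SuHx library 1.

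**Figure D4:**
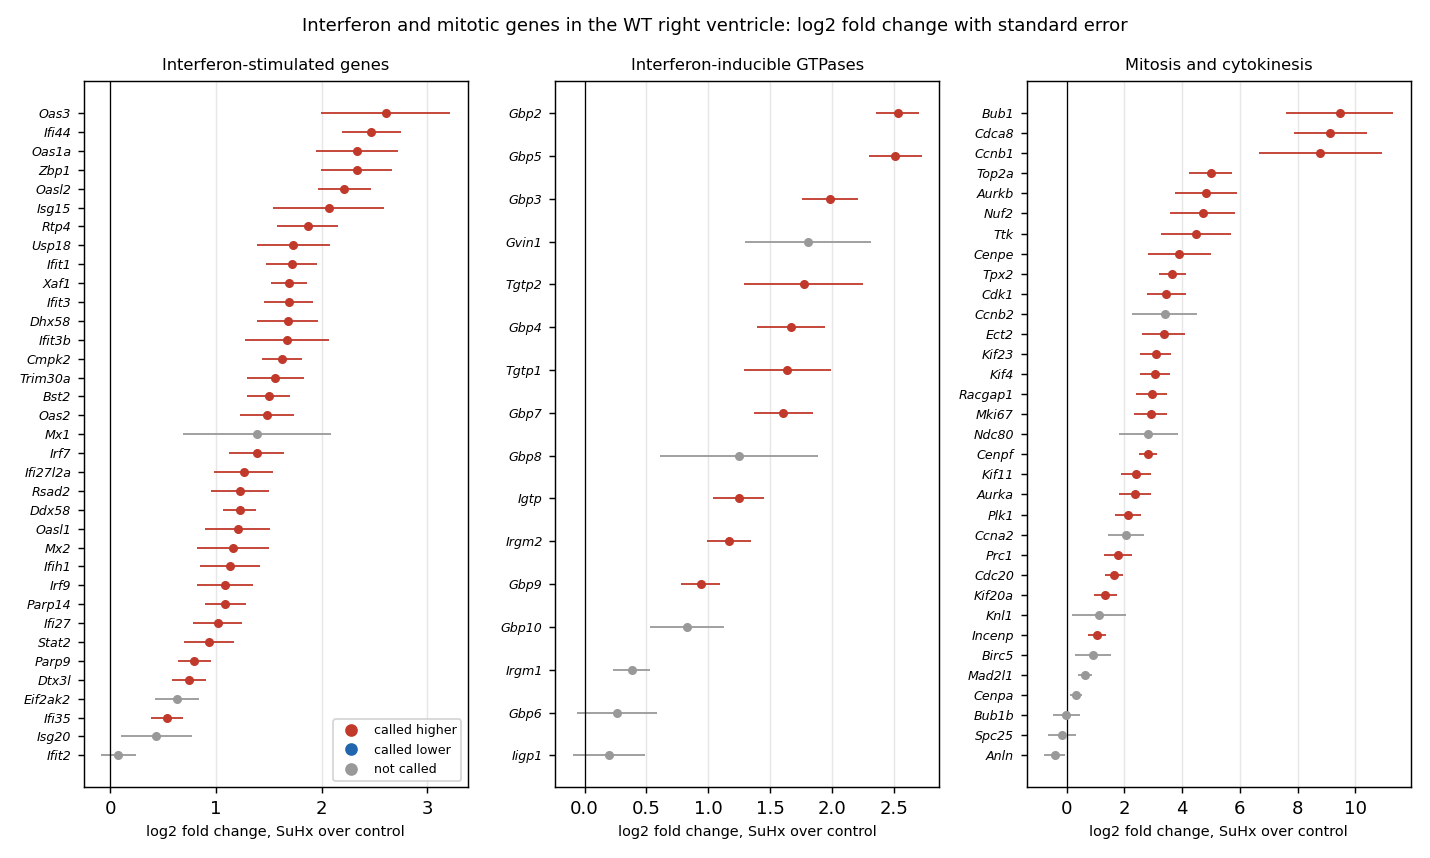
Log2 fold change (WT SuHx over WT control) with standard error for members of at least 0.5 CPM of 3 lists, red where called higher and grey where not called. No member is called lower, and the mitotic genes reach the largest fold changes and the widest errors.

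Collagen genes were higher, with fibrillar, basement membrane and beaded-filament types all represented. Fibroblasts make most fibrillar collagen, and endothelial and mural cells contribute basement membrane chains. Of 22 tested collagens 14 were called higher and 0 lower, with a median of 1.13. Col3a1, a fibrillar chain, had 284 and 249 CPM in WT SuHx, against 25.3 and 58.7 CPM in WT control (2.67 ± 0.43), Col15a1, of the basement membrane zone, had 90.7 and 69.3 CPM in WT SuHx and 5.68 and 15.1 CPM in WT control (2.94 ± 0.45), and Col6a2, of beaded filaments, had 100.3 and 89.5 CPM in WT SuHx, against 19.6 and 31.6 CPM in WT control (1.89 ± 0.22, edgeR adjusted p = 0.00149). Its partner chain Col6a1 changed by 1.44 ± 0.22. Col5a1, which sets fibril width, changed by 1.21 ± 0.17, Col8a1 by 1.15 ± 0.18, and the basement membrane pair Col4a1 and Col4a2 by 0.88 ± 0.15 and 0.65 ± 0.14. Control library 1 was the lowest for Col3a1, Col15a1 and Col6a2. The minor chain Col4a5 (-0.28 ± 0.12) was not called. The count was 8 without SuHx library 1. Col3a1 was not called without either SuHx library.

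Collagen-processing genes had 9 of 25 higher and 2 lower. Fewer were called higher without either SuHx library or control library 1, and more without control library 2. Loxl2, a crosslinking oxidase, had 31.02 and 27.8 CPM in WT SuHx and 6.19 and 10.3 CPM in WT control (1.84 ± 0.27), Pcolce, which speeds procollagen cleavage, had 54.1 and 60.5 CPM in WT SuHx, against 16.2 and 24.2 CPM in WT control (1.505 ± 0.18), and Bmp1, the cleaving protease, had 54.2 and 48.8 CPM in WT SuHx and 24.3 and 31.4 CPM in WT control (0.89 ± 0.14). Crtap, of the prolyl hydroxylation complex, changed by 1.06 ± 0.13. The founding crosslinking oxidase Lox went against its relatives, at 2.64 and 3.54 CPM in WT SuHx, against 22.1 and 14.5 CPM in WT control (-2.57 ± 0.26), and P3h4 was also lower (-0.93 ± 0.12). Of the 8 GO terms with the largest shares of higher genes 4 were matrix terms, with 15 of 30 and 0 lower for tensile-strength matrix constituents, 26 of 57 and 0 lower for collagen trimer, 9 of 20 and 3 lower for extracellular matrix binding and 18 of 42 and 1 lower for collagen binding. Among the collagen-binding genes were Lrrc15, a surface marker of activated fibroblasts, at 27.04 and 29.05 CPM in WT SuHx and 4.096 and 3.801 CPM in WT control (2.83 ± 0.24), the integrin subunit Itga9 (1.75 ± 0.14) and Aspn (1.198 ± 0.11). KEGG's Protein digestion and absorption (18 of 61 higher, 2 lower) also holds collagens. Without SuHx library 1 these 5 terms had 8, 12, 5, 16 and 7 higher, and without SuHx library 3 they had 11, 17, 7, 15 and 9. Heart morphogenesis, also among the 8 GO terms, had 8 of 19 higher and 1 lower, led by Mybpc3 and Col5a1, and had 2 higher without SuHx library 1 and 4 without SuHx library 3.

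Noncollagenous matrix genes had 17 of 40 higher and 4 lower. Postn, of activated fibroblasts, had 70.3 and 71.1 CPM in WT SuHx, against 12.7 and 19.1 CPM in WT control (2.15 ± 0.21), Sparcl1 had 463 and 405 CPM in WT SuHx and 174 and 205 CPM in WT control (1.19 ± 0.13), and the heparan sulfate proteoglycan Hspg2 had 456 and 406 CPM in WT SuHx, against 215 and 199.8 CPM in WT control (1.06 ± 0.13). Fn1, fibronectin, changed by 1.07 ± 0.18, Bgn by 1.09 ± 0.14 and Sparc by 1.42 ± 0.16. On the other side Ccn2, a matricellular gene induced by TGF-beta and by YAP, had 75.1 and 93.4 CPM in WT SuHx and 1259 and 616 CPM in WT control, and Thbs2 had 23.6 and 28.7 CPM in WT SuHx, against 80.97 and 74.95 CPM in WT control (-1.58 ± 0.14). Dcn, a proteoglycan of resting fibroblasts, was lower as well (-0.76 ± 0.09), as was Ltbp3 (-0.38 ± 0.11), which holds latent TGF-beta. The higher count was 9 without SuHx library 1 and 11 without SuHx library 3, and 2 genes were lower without a SuHx library or without control library 1. Proteases and inhibitors had 7 of 29 higher and 4 lower, with the membrane protease Mmp15 at 114 and 109.8 CPM in WT SuHx and 25.1 and 37.9 CPM in WT control (1.83 ± 0.17), the sheddases Adam10 (0.64 ± 0.11) and Adam15 (0.71 ± 0.11) higher with Adamts10 (0.81 ± 0.15) and Mmp2 (0.83 ± 0.21). The membrane protease Mmp14 (-1.21 ± 0.25), the stromelysin Mmp3 (-2.88 ± 0.61) and the aggrecanase Adamts5 (-0.74 ± 0.20) were lower. That list had 2 higher and 1 lower without SuHx library 1, and 1 lower without control library 1.

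Fibroblast markers had 4 of 10 called higher and 2 lower, with sums of 2526 and 2490 CPM in WT SuHx and 2729 and 3345 CPM in WT control. Pericyte and smooth muscle markers had 5 of 10 higher and 0 lower, with sums of 1457 and 1443 CPM in WT SuHx and 912 and 886 CPM in WT control. The marker lists include Col1a1, Dcn, Lum and Acta2 themselves, and the part of cell numbers in the matrix results was not tested. Ligands, receptors and inhibitors of TGF-beta and BMP signalling had 3 of 34 higher and 3 lower, near the background. The GO term for the cellular response to transforming growth factor beta had 7 of 15 higher and 2 lower, with Postn and Nr3c1 among its leading genes, and 2 higher without SuHx library 1 and 4 without SuHx library 3. In the signalling list, Fstl1 had 95.9 and 92.3 CPM in WT SuHx, against 35.4 and 42.1 CPM in WT control (1.28 ± 0.11), the endothelial receptor Acvrl1 changed by 0.96 ± 0.23, and the related receptor Acvr1 by 0.47 ± 0.13. The activin chain gene Inhbb (-2.25 ± 0.31) and the follistatin genes Fst (-2.91 ± 0.86) and Fstl3 (-0.93 ± 0.26), whose products bind activins, were lower. Without SuHx library 1 the signalling list had 1 gene called in each direction, and without SuHx library 3 it had 1 higher and 2 lower. Targets and parts of the YAP pathway had 0 of 22 higher and 5 lower, with Amotl2 (-1.64 ± 0.36), Lats1 (-0.85 ± 0.13), Tead1 (-0.56 ± 0.16) and Tead3 (-0.61 ± 0.12) beside Ccn2, and 1 lower without either SuHx library and 3 without control library 1.

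Vessel genes called higher included receptors and genes known from the tip cells of growing vessels. Bulk tissue does not show in which cells they changed. VEGF binds KDR with neuropilins as partners, and apelin marks endothelial cells that sprout. Of 35 tested members of the angiogenic list 15 were called higher and 2 lower. Fewer were called higher without either SuHx library or control library 1, and more without control library 2. The list's median log2 fold change was 0.36, and ranged from 0.36 to 0.73 with a WT library left out. Apln had 25.2 and 16.4 CPM in WT SuHx and 0.847 and 0.805 CPM in WT control (4.65 ± 0.32, edgeR adjusted p = 0.000399) and its receptor gene Aplnr had 67.6 and 36.6 CPM in WT SuHx, against 1.802 and 3.65 CPM in WT control (4.25 ± 0.41). The neuropilin gene Nrp2 had 59.2 and 52.7 CPM in WT SuHx and 13.1 and 18.5 CPM in WT control (1.82 ± 0.17), its relative Nrp1 changed by 1.01 ± 0.11, and Unc5b, a netrin receptor of tip cells, had 45.1 and 32.1 CPM in WT SuHx, against 9.78 and 10.2 CPM in WT control (1.95 ± 0.22). Esm1, another tip cell gene, was rare, at 0.818 and 1.04 CPM in WT SuHx and 0.108 and 0.1696 CPM in WT control (2.72 ± 0.53). It was not called without SuHx library 3. As for every called gene, the SuHx libraries lay on one side of both controls for these genes. SuHx library 1 was above SuHx library 3 for Apln, Aplnr and Unc5b.

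Of the VEGF receptors that Sugen is made to block, Kdr had 196 and 147 CPM in WT SuHx, against 82.5 and 80.5 CPM in WT control (1.08 ± 0.14). Flt4 had 18.6 and 18.8 CPM in WT SuHx and 11.3 and 11.6 CPM in WT control (0.71 ± 0.14). Tie1 (0.96 ± 0.10), Tek (0.66 ± 0.12) and Angpt2 (1.43 ± 0.21) of the angiopoietin system rose with them. Tek was not called without SuHx library 1. Of the ligands, Vegfc changed by 0.98 ± 0.28 and Vegfb by 0.30 ± 0.09, while Vegfa, the main ligand of Kdr, was at 251 and 225 CPM in WT SuHx, against 229.8 and 218 CPM in WT control and was not called (0.09 ± 0.13). In CPM per kilobase of exon, Vegfa stood at 58.6 and 52.5 in WT SuHx against 53.6 and 51.0 in WT control. Vegfb stood at 138 and 137 in WT SuHx against 109 and 114 in WT control, and Vegfc at 3.46 and 3.02 in WT SuHx against 1.195 and 2.095 in WT control, so Vegfb had the highest level and Vegfc the lowest in every WT library. Flt4 was not called without either SuHx library, Vegfc without either SuHx library or control library 1, and Vegfb without any 1 of the 4 WT libraries. Igfbp3 (-1.95 ± 0.34) and the arterial Notch target Hey2 (-0.92 ± 0.19) were lower, and neither was called without SuHx library 1 or SuHx library 3. Endothelial markers had 5 of 10 called higher and 1 lower, with sums of 1473 and 1322 CPM in WT SuHx and 1401 and 1229 CPM in WT control, and their part in these results was not tested.

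Genes around endothelial nitric oxide synthase, taken from a Reactome term looked up after values were seen, had 8 of 16 higher and 0 lower. Ddah1, which clears a natural inhibitor of the synthase, had 6.6995 and 6.89 CPM in WT SuHx and 0.693 and 1.19 CPM in WT control (2.85 ± 0.30), and Cav1, which holds the synthase in caveolae, had 383 and 326 CPM in WT SuHx, against 142 and 167 CPM in WT control (1.198 ± 0.13). Calmodulin 3, Calm3, changed by 0.86 ± 0.10, and the synthase gene Nos3 itself was at 45.7 and 43.3 CPM in WT SuHx and 33.6 and 39.6 CPM in WT control and was not called (0.28 ± 0.13). The count was 5 without SuHx library 1.

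Contractile genes changed in both directions. Sarcomeres hold thick filaments of myosin and thin filaments of actin, and mouse ventricle uses alpha-myosin (Myh6), with beta-myosin (Myh7) in the fetus and in many overloaded hearts. Of 41 tested members 10 were called higher and 8 lower. Myh7 had 542 and 567 CPM in WT SuHx, against 6453 and 2931 CPM in WT control (log2 fold change -3.08 ± 0.61, edgeR adjusted p = 0.0232). In CPM per kilobase of exon, Myh7 made up 2.45% and 2.36% of the sum of Myh6 and Myh7 in WT SuHx, against 28.8% and 16.2% in WT control. The controls were thus unlike each other, and control library 1 was the higher. Without it Myh7 changed by -2.40 and was not called (edgeR adjusted p = 0.0792), nor was it called without SuHx library 1 or 3 or with no filter on low counts. On the same scale Myh6 was at 2511 and 2725 in WT SuHx and 1855 and 1763 in WT control, and its difference (0.53 ± 0.19) was not called.

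Actins were higher. Skeletal actin Acta1 had 276 and 145 CPM in WT SuHx and 25.9 and 29.3 CPM in WT control (2.93 ± 0.31), cardiac actin Actc1 had 7499 and 7838 CPM in WT SuHx, against 1984 and 3208 CPM in WT control (1.56 ± 0.20) and smooth muscle actin Acta2 had 225 and 298 CPM in WT SuHx and 54.9 and 86.8 CPM in WT control (1.88 ± 0.21). In CPM per kilobase of exon, Actc1 was the most abundant of the 3, at 4635 and 4844 in WT SuHx against 1226 and 1982 in WT control, and Acta1 stood at 179 and 94.4 in WT SuHx against 16.9 and 19.1 in WT control. Mybpc3, myosin-binding protein C, had 3111 and 3039.9 CPM in WT SuHx, against 1201 and 1075 CPM in WT control (1.43 ± 0.15), and Fhl2, a LIM protein of the Z-disc and titin, had 1289.7 and 1462 CPM in WT SuHx and 317 and 485 CPM in WT control (1.78 ± 0.19). Of the Z-disc and M-band, Xirp1 had 166 and 161 CPM in WT SuHx, against 583 and 623 CPM in WT control (-1.88 ± 0.10), Myom2 had 1080.3 and 769 CPM in WT SuHx and 2969 and 2592 CPM in WT control (-1.59 ± 0.16), Nrap changed by -0.96 ± 0.11, Fhl1 by -0.82 ± 0.16 and the intermediate filament gene Des by -0.56 ± 0.12. The lower count was 3 without either SuHx library and 5 without control library 1. Ventricular muscle markers had 3 of 9 called higher and 0 lower, and atrial markers 0 of 7, with atrial sums of 106 and 104 CPM in WT SuHx and 150.2 and 370.1 CPM in WT control.

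Calcium-handling genes had 7 of 29 higher and 2 lower. Casq2, which buffers calcium in the store, had 754 and 731 CPM in WT SuHx, against 276 and 317 CPM in WT control (1.32 ± 0.12, edgeR adjusted p = 0.000586), and Cacnb2, a subunit of the L-type channel, had 82.6 and 75.5 CPM in WT SuHx and 30.8 and 38.5 CPM in WT control (1.19 ± 0.12). Cacna1g, a T-type channel of pacemaker and immature muscle cells, had 17.8 and 21.9 CPM in WT SuHx, against 2.59 and 5.96 CPM in WT control (2.21 ± 0.35). The pump gene Atp2a2 changed by 0.48 ± 0.11 and the exchanger gene Slc8a1 by 0.52 ± 0.11, with Asph at 0.73 ± 0.11. Jph1, which ties the store to the surface membrane, was lower (-0.87 ± 0.12), as was Camk2a (-0.59 ± 0.11). The release channel Ryr2 (0.52 ± 0.16) and the pump's brake Pln (0.31 ± 0.11) were not called. The higher count was 4 and the lower count 1 without either SuHx library.

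Ion channel genes had 10 of 32 higher and 2 lower. The pacemaker channel gene Hcn2 had 46.8 and 44.97 CPM in WT SuHx and 22.3 and 14.6 CPM in WT control (1.32 ± 0.19). Its relative Hcn4 had 9.14 and 8.36 CPM in WT SuHx, against 3.31 and 2.204 CPM in WT control (1.67 ± 0.29). The sodium channel gene Scn10a, at 4.67 and 6.34 CPM in WT SuHx and 1.79 and 1.55 CPM in WT control (1.72 ± 0.27), was higher. Kcnj8 (0.88 ± 0.18) and Abcc9 (0.64 ± 0.15), which encode subunits of KATP channels, were higher too. Kcnj11, another KATP subunit gene, was lower (-0.37 ± 0.09), as was Kcnk3, a background potassium channel (-0.32 ± 0.09). Markers of valve and conduction tissue had 1 of 6 called, Hcn4, with sums of 32.8 and 36.1 CPM in WT SuHx and 19.2 and 36.0 CPM in WT control. The repolarising channel genes Kcnd2 (0.39 ± 0.19) and Kcnh2 (0.35 ± 0.21) were not called. The higher count was 4 without either SuHx library. In those refits and without control library 1, edgeR called 0 lower, and without control library 2 it called 1.

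**Figure D5:**
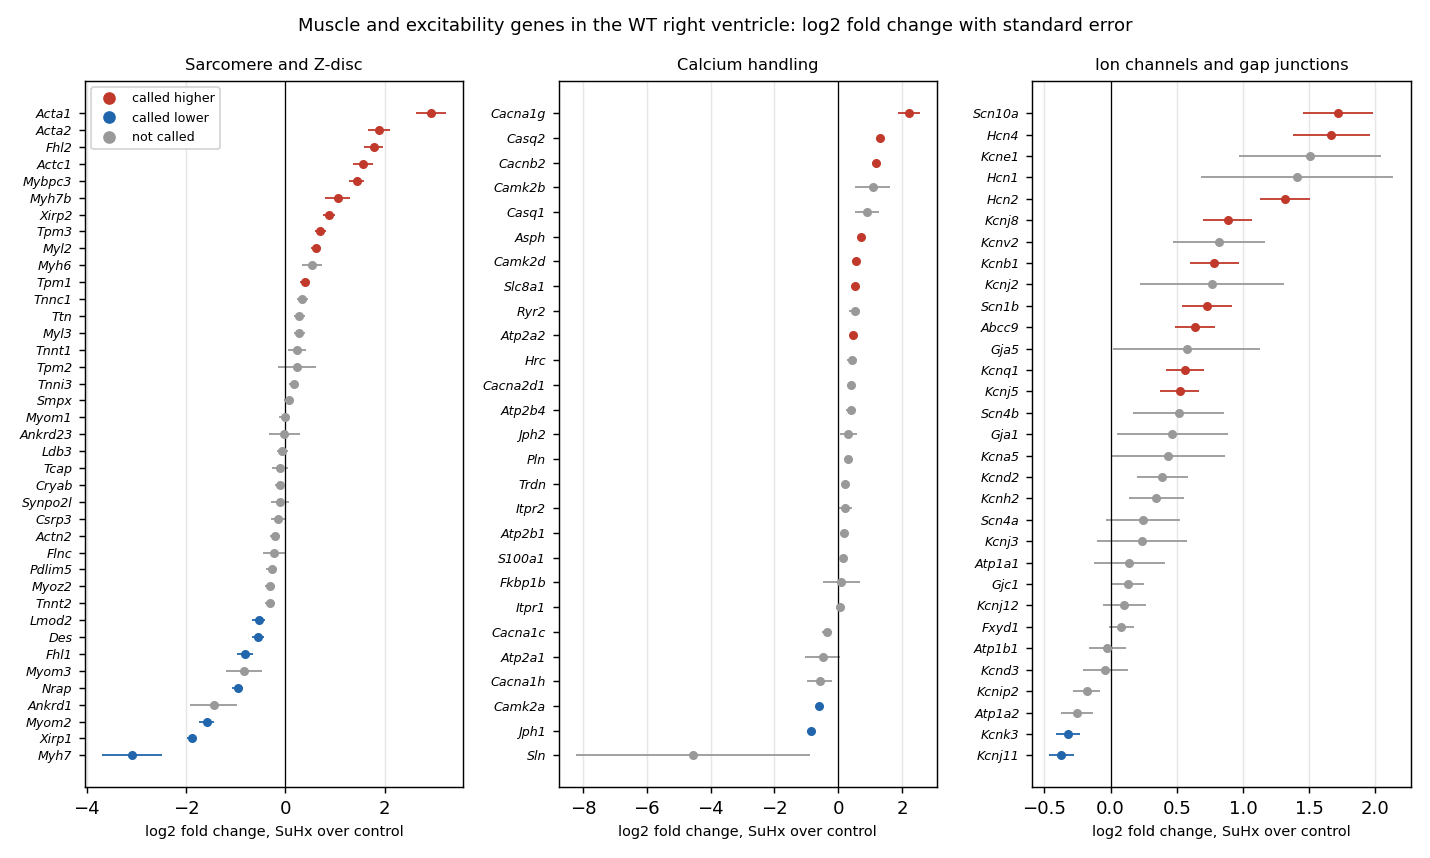
Log2 fold change (WT SuHx over WT control) with standard error for members of at least 0.5 CPM of the sarcomere, calcium and ion channel lists, red where called higher, blue where called lower and grey where not called. Sarcomere genes run from Myh7 at -3.08 to Acta1 at 2.93, and the calcium and channel lists have more genes called higher than lower.

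Neurohormonal genes had 4 of 30 higher and 7 lower. Of the natriuretic peptide genes, usual load markers, Nppa was at 81.1 and 70.6 CPM in WT SuHx, against 90.1 and 218 CPM in WT control (-1.02 ± 1.66). Nppb was at 66.1 and 27.03 CPM in WT SuHx and 54.7 and 77.4 CPM in WT control (-0.50 ± 0.67), and neither was called. Calcrl, the receptor of adrenomedullin, had 23.1 and 24.4 CPM in WT SuHx, against 7.41 and 10.97 CPM in WT control (1.37 ± 0.19), and angiotensin-converting enzyme, Ace, had 43.05 and 63.9 CPM in WT SuHx and 28.1 and 35.1 CPM in WT control (0.76 ± 0.21). Pde5a, which breaks down cyclic GMP (0.92 ± 0.23), and the beta-adrenergic receptor gene Adrb1 (0.63 ± 0.19) were higher too. Angiotensinogen, Agt (-1.55 ± 0.31), the clearance receptor Npr3 (-1.31 ± 0.33), and Corin (-0.55 ± 0.13) and Furin (-0.52 ± 0.13), proteases that cut natriuretic peptide precursors, were lower. The lower count was 0 without SuHx library 1, 1 without SuHx library 3 and 2 without control library 1, and the higher count was then 2, 2 and 1. Ace was not called without SuHx library 3 or control library 1.

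Genes of autophagy and of mitochondrial clearance were called lower more often than higher. Autophagy wraps worn proteins and mitochondria in membranes that carry LC3 family proteins and sends them to lysosomes. Of 35 tested members 12 were called lower and 6 higher. Sqstm1, the p62 adaptor, had 298 and 322 CPM in WT SuHx, against 911 and 881 CPM in WT control (-1.53 ± 0.11), Bnip3, a receptor for mitochondrial clearance, had 141 and 149 CPM in WT SuHx and 943 and 604 CPM in WT control (-2.42 ± 0.20), and Map1lc3b, an LC3 gene, had 205 and 202 CPM in WT SuHx, against 509 and 428 CPM in WT control (-1.204 ± 0.12). The protease Ctsl changed by -1.25 ± 0.14, Gabarapl1 by -1.71 ± 0.23 and the kinase Pink1 by -0.76 ± 0.10. Lysosomal genes were mixed, with Ctsb (0.60 ± 0.11), Ctsz (0.67 ± 0.16), Lamp1 (0.42 ± 0.09) and the macrophage-rich Ctss (1.13 ± 0.29) higher and Lamp2 lower (-0.37 ± 0.10). Of the muscle ring-finger ligases Trim55 was higher (0.70 ± 0.11), and the atrophy ligases Fbxo32 (-1.08 ± 0.64) and Trim63 (-0.90 ± 0.47) were not called. The lower count was 7 without SuHx library 1, and the higher count was 2 without SuHx library 1 and 1 without SuHx library 3.

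Genes of the hypoxia response did not move together, with 4 of 24 higher and 6 lower and a median of -0.07. The list holds HIF subunits and oxygen-sensing hydroxylases as well as targets. Egln3, a hydroxylase that HIF induces, had 91.3 and 97.1 CPM in WT SuHx and 24.6 and 42.6 CPM in WT control (1.49 ± 0.24), and Pfkfb4 (1.55 ± 0.34) and Higd1a (0.78 ± 0.11) were higher with Hk2. Hif3a, Bnip3, Pdk1 and the demethylase gene Kdm4b (-0.73 ± 0.15) were lower, as was heme oxygenase, Hmox1, at 13.8 and 13.6 CPM in WT SuHx, against 81.3 and 76.5 CPM in WT control (-2.52 ± 0.47). Epas1, the HIF subunit abundant in endothelium, was not called (-0.32 ± 0.14). Without either SuHx library 3 genes were called lower. Hmox1 was not called without any 1 of the 4 WT libraries.

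Few members of the AhR list beyond Cyp1a1 were called by edgeR. The list holds the receptor and its partner as well as targets. DESeq2 called 4 members higher, and a fit with the replicate block called 3. Ahrr, the pathway's own repressor, had 10.2 and 8.51 CPM in WT SuHx and 2.36 and 2.91 CPM in WT control (1.83 ± 0.23, edgeR adjusted p = 0.00161), and Arnt, the partner of AhR, was lower (-0.53 ± 0.12). Cyp1b1, at 61.3 and 54.3 CPM in WT SuHx, against 30.7 and 15.3 CPM in WT control, and the target Nqo1 (-0.37 ± 0.14) were not called, so 2 of 10 tested members were higher and 1 lower, and Arnt was not called without either SuHx library or control library 1. The core of the xenobiotic response element, TNGCGTG, lay in the searched window of Ahrr alone among 8 matched members, against 7.06% of tested genes. The stretch of Ahrr is shown with the match in capitals.
Ahrr (chr13:74292334-74292380, minus strand): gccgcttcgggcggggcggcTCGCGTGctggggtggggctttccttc
The Cyp1a1 window held no match, which says only that these letters are not in those 250 bases.

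Clock genes changed in both directions. The activators Arntl and Npas2 peak opposite to their targets Dbp and Per3. Arntl had 2.89 and 1.82 CPM in WT SuHx and 25.6 and 6.67 CPM in WT control (-2.77 ± 0.61), and Npas2 had 2.29 and 1.27 CPM in WT SuHx, against 11.8 and 5.24 CPM in WT control (-2.26 ± 0.45). Dbp had 174 and 186.8 CPM in WT SuHx and 49.7 and 57.2 CPM in WT control (1.75 ± 0.16), and Per3 (1.19 ± 0.24), Nr1d2 (0.77 ± 0.13) and Bhlhe41 (0.96 ± 0.17) were higher too. The repressor gene Cry2 (-0.99 ± 0.18) and Clock (-0.74 ± 0.20), the partner of Arntl, were lower. In all 5 of 19 were called higher and 6 lower, with 2 lower without SuHx library 3 and 3 higher without either SuHx library or control library 1. The hour of tissue collection is not given in the labels. Arntl was not called without either SuHx library, and Npas2 without SuHx library 3.

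Glucocorticoid-responsive genes, a readout of stress hormone, had 5 of 17 lower and 1 higher, with a median of -1.09. Fkbp5 had 8.295 and 23.3 CPM in WT SuHx, against 167 and 83.3 CPM in WT control (-2.98 ± 0.57), Mt1 had 36.3 and 66.2 CPM in WT SuHx and 427 and 174 CPM in WT control (-2.55 ± 0.57), and Hsd11b1, which makes active corticosterone, had 6.99 and 7.64 CPM in WT SuHx, against 60.5 and 34.1 CPM in WT control (-2.69 ± 0.46), and the acute-phase gene Lcn2 changed by -2.16 ± 0.52, whereas the receptor gene Nr3c1 was higher (0.81 ± 0.12). Control library 1 was the highest of the 4 libraries for Fkbp5, Mt1 and Hsd11b1. Fkbp5 was not called without it, Mt1 without it or either SuHx library, and Hsd11b1 without either SuHx library. Lcn2 was not called without control library 1 or without either SuHx library. With the replicate block, Fkbp5 and Lcn2 were not called. The list had 1 gene called lower without control library 1 and 2 without SuHx library 1. Immediate early genes had 5 of 22 lower and 0 higher, with a median of -1.15. Myc had 3.11 and 2.83 CPM in WT SuHx and 19.8 and 9.93 CPM in WT control (-2.32 ± 0.49), Maff had 4.31 and 6.36 CPM in WT SuHx, against 17.9 and 34.7 CPM in WT control (-2.302 ± 0.37) and Fosl2 changed by -1.41 ± 0.16, while Fos (-2.19 ± 1.14) was not called. That count was 2 without SuHx library 1, 3 without SuHx library 3, 10 without control library 1 and 8 without control library 2. Myc was not called without either SuHx library or control library 1, and Maff was not called without SuHx library 1. The share of handling or time of day in the lower genes above was not tested.

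The endoplasmic reticulum and amino acid stress list had 2 of 26 higher and 3 lower, with the regulator Atf4 at 55.98 and 61.5 CPM in WT SuHx and 88.1 and 142 CPM in WT control (-0.97 ± 0.23). The serine synthesis gene Psat1 (-1.302 ± 0.27) and the chaperone cofactor gene Dnajb9 (-0.53 ± 0.16) were lower, and Pdia4 (0.87 ± 0.26) and Sdf2l1 (1.06 ± 0.29) were higher. Without SuHx library 1 it had 0 in either direction. Amino acid transporters had 0 of 18 higher and 2 lower, Slc7a8 (-1.07 ± 0.28) and Slc7a1 (-0.97 ± 0.27), and neither was called when SuHx library 1 or 3 was left out. Red cell markers, which reflect blood left in the tissue, had 0 of 5 called and sums of 625 and 24.5 CPM in WT SuHx and 303 and 222 CPM in WT control, so the SuHx libraries differed in this respect by more than the groups did. Mesothelial markers had 0 of 7 called, with sums of 11.6 and 10.9 CPM in WT SuHx and 26.5 and 13.9 CPM in WT control. Atf4 was not called without either SuHx library or control library 2.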

How the data were processed

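Bulk RNA of mouse right ventricle was sequenced in 8 libraries, 2 in each of WT SuHx, WT control, Fpr2-KO SuHx and Fpr2-KO control. The authors deposited raw counts per gene, used here as given; 8 further columns of per-sample values were not used. The submitters' processing notes name the mm10 build, HISAT2 2.2.1, cutadapt 1.9, StringTie 2.1.6, edgeR and DESeq2. The strand setting of counting is not given in the sources used here, so overlapping and antisense genes are uncertain. Counts of near-identical genes, such as Acot1 and Acot2 or C4a and C4b, may share reads.

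Genes were kept by edgeR's filterByExpr by group (19083 of 30495). Libraries were scaled by TMM and fitted in edgeR 4.0.16 (R 4.3.3) with 1 mean per group over all 8 libraries, so the Fpr2-KO libraries contribute to the spread. Called genes had a Benjamini-Hochberg adjusted p under 0.05 in the two-sided quasi-likelihood test over all tested genes. Standard errors are the log2 fold change divided by the root of its F statistic. Replicate numbers did not pair the libraries (correlations of deviations -0.0234 to 0.0408). The fit was tested on simulated data.

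The comparison, the gene lists and the markers were chosen with earlier results of these data known. Named genes were the 15 largest changes in each direction among called genes whose groups do not overlap, of at least 5 CPM in the higher group and with a symbol that is no clone name, then up to 4 list members of smallest adjusted p in each direction, up to 3 per annotated term, and members of known role that were not called. Further members were named after their values were seen. Some genes are not reported here and are left out of the text and the figures, while the counts of lists and terms include them. KEGG and GO terms of 15 to 300 tested genes came from the deposited table, whose GO column does not separate biological processes, so all GO terms were used. Disease-named KEGG pathways were left out, Reactome terms were looked up after values were seen, and recounting the terms under other fits was also chosen after seeing the data. No list or term was tested as a set. Levels of different genes were compared after division by the merged exon length in GENCODE's annotation of the same assembly. Promoters of 250 upstream bases came from RefSeq (GRCm38.p6). Alternatives were DESeq2 1.42.0, other scalings, no filter, the 4 WT libraries alone, a replicate block and each library left out.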

Additional observations from a re-analysis of the deposited data

How the results depend on the processing

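No gene called in WT SuHx against WT control changed sign in any alternative. The 3919 calls were 4673 with DESeq2, 3948 with the scaling of DESeq2, 3924 without mitochondrially coded genes and 3685 with no filter on low counts. With the 4 WT libraries alone edgeR called 2676 genes, 1360 higher and 1316 lower, of which 2551 were among the 3919. The column numbers do not pair the libraries, and a fit with the replicate block called 2729, 1479 higher and 1250 lower. Requiring a 2-fold change left 1608 (1011 higher and 597 lower). Leaving out 1 library gave 1328 to 4289 calls, 773 to 2323 higher and 555 to 1966 lower, lowest without a SuHx library. The count for the difference between genotypes, 0 in edgeR with 2417 at an unadjusted p under 0.05, was 512 with DESeq2, 12 with no filter and 0 to 756 with 1 library left out. The cause of these changes was not tested. Of uncalled genes named, 4 changed sign with 1 WT library left out: Fbxo32 ranged from -1.79 to 0.36 and Trim63 from -1.48 to 0.10 on the log2 scale, positive without control library 1, Nppb from -1.28 to 0.0047, positive without SuHx library 3, and Ifit2 from -0.15 to 0.28, negative without SuHx library 1 or control library 2. Genes below 1 CPM rest on few counts.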
